A study of Mus musculus with 2 samples.

Results

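The miRNA genes that lie inside the 4 Hox clusters of the mouse were compared between mouse embryonic stem cells (mESCs) and male germ cells of the fetal testis. They were chosen by name as Mir10a, Mir10b, Mir196a-1, Mir196a-2, Mir196b and Mir615, which are 6 of the 1638 miRNA features listed, and no other listed feature lay between the first and the last protein-coding Hox gene of any cluster. The smRNA-seq values came from a single library of each, of E14 mESCs and of male prospermatogonia at E15.5, which the labels call primordial germ cells. Both samples are labelled wild-type. E14 is an established line, which the study's methods describe as grown without feeder cells in serum-free medium with LIF and a pair of kinase inhibitors when naive. The labels do not say whether the cells of this library were grown in that way. The prospermatogonia came from embryos of C57Bl/6J females that carry an Oct-4/GFP transgene, active in the gonad during development. How many embryos were pooled is not given in the sources used here. With 1 library per condition there was no test between conditions. The intervals below are 95% Wilson intervals of read counts unless stated otherwise. They hold for counting error alone, as PCR copies of a molecule enter as separate reads.

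Hox genes encode transcription factors that set position along the body axis, and their order on the chromosome follows the order of their expression from head to tail. The miR-10 genes lie near the Hox4 genes and the miR-196 genes between the Hox9 and Hox10 genes or beside them, and both families are kept at these places across vertebrates. A miRNA pairs with messenger RNAs mainly through its seed, the bases 2 to 8 counted from 1 at its 5′ end, and miR-196 is known for the cleavage of Hoxb8 messenger RNA.

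The mature sequences, taken from RefSeq (GRCm38.p6) and found for all 6 genes, are shown because they set which members can share targets and which can share reads. They are written 5′ to 3′ with the seed in capitals, and Mir196a-1 and Mir196a-2 give the same miR-196a-5p.
miR-10a-5p: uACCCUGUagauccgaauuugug
miR-10b-5p: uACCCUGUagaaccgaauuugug
miR-196a-5p: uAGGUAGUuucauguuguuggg
miR-196b-5p: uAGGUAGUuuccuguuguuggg
miR-615-3p: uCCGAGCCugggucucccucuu

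The members thus form 3 seed groups. The mature miR-10a-5p and miR-10b-5p are identical in 22 of 23 bases, with the single difference U12A, where positions count from 1 at the 5′ end and the miR-10a base stands first. Likewise miR-196a-5p and miR-196b-5p are identical in 21 of 22 bases and differ by A12C. No other miRNA name in the RefSeq table had the seed of miR-10 or of miR-196. The 7 letters of the miR-196 seed also occur one base further in, at bases 3 to 9, in 7 mature let-7 sequences, which is a match of letters and not a shared seed. The hairpins of the miR-10 genes are given because the deposited values are per gene and not per mature strand, with the 5p and the 3p strand in capitals.
Mir10a: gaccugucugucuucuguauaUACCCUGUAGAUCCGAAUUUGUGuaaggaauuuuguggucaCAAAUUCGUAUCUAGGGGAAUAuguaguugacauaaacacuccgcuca
Mir10b: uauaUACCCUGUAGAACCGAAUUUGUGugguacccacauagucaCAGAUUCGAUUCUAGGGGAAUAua
The longest stretch that these hairpins share is 15 bases. The deposited values do not divide the reads between the 5p and the 3p strand.

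Mir10a lies on chromosome 11 from 96317165 to 96317274 (GRCm38, plus strand), 0.993 kb from Hoxb4, and overlaps no other annotated gene. Mir10b lies on chromosome 2 from 74726070 to 74726137 on the plus strand, in introns of Hoxd3 and Hoxd4. Mir196a-1 lies on chromosome 11 from 96265164 to 96265265 on the plus strand, 6.19 kb from Hoxb9 and 67.7 kb from Hoxb13, in no other gene. Mir196a-2 is listed on chromosome 15 from 102973341 to 102973450 on the plus strand, in an intron of a long Hoxc5 transcript, 1.45 kb from Hoxc10 and 2.99 kb from Hoxc9. Mir196b lies on chromosome 6 from 52230081 to 52230165 on the minus strand, in an annotated exon of the Hoxa9 gene and 1.03 kb from Hoxa10. Mir615 lies on chromosome 15 from 103014910 to 103015001 on the plus strand, in an intron of Hoxc5. Each of the 4 clusters thus held at least 1 listed miRNA, and the Hoxb and Hoxc clusters held 2 each.

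**Figure D1:**
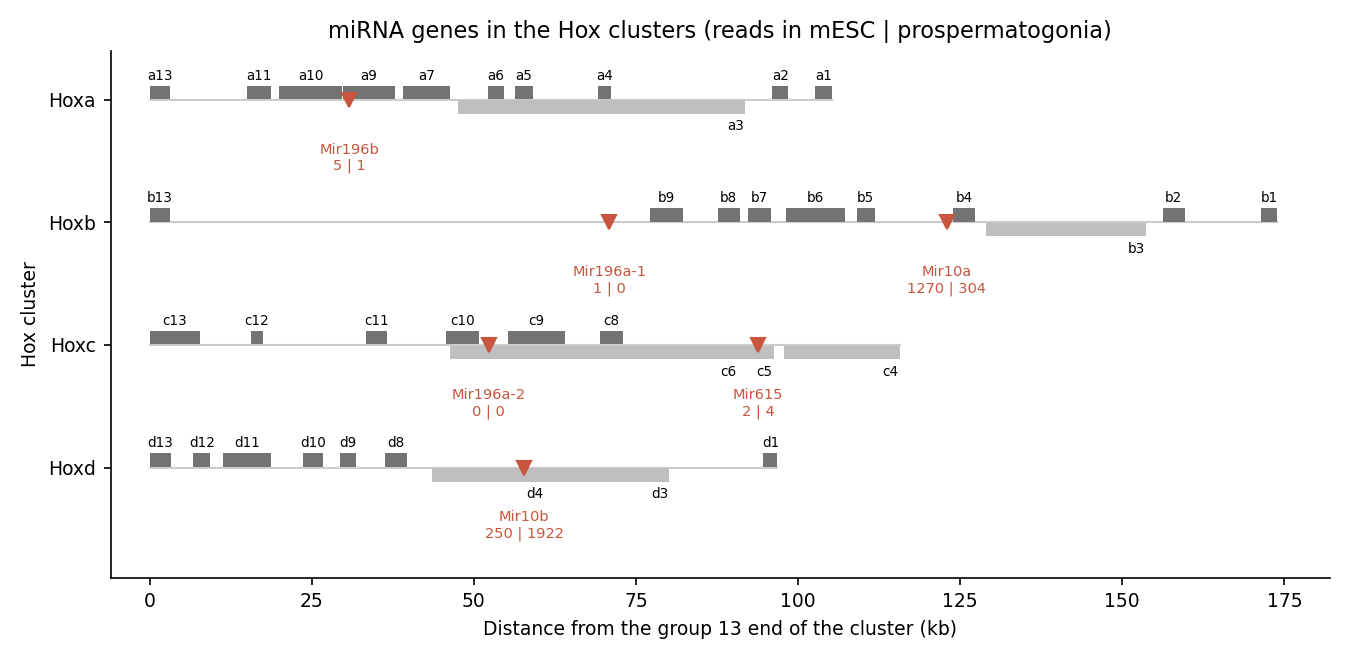
Positions of the 6 miRNA genes (red triangles) along the 4 Hox clusters, with the distance in kb from the end that carries the group 13 gene on the x axis, one cluster per row, and the reads of the mESC and the prospermatogonia library under each name. Hox genes are dark bars, or pale bars below the line for the longest annotated genes, which can overlap and are named at their far end, and the 2 miR-10 genes are the only members with more than 5 reads in a library.

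The mESC library held 449643 reads and the prospermatogonia library 2869578, a 6.38-fold greater depth, if the deposited values are read as log2 RPM (reads per 1000000 reads of the library). A single read was worth 2.22 RPM in the former and 0.348 RPM in the latter. Where a count was 0, the level may be as high as 3 reads, equal to 6.67 RPM for the mESC library and 1.05 RPM for the prospermatogonia library. Reads on the listed miRNA features were 110455 in mESCs (24.6% of the library) and 155237 in prospermatogonia (5.41%). The RPM of a miRNA can therefore fall while its share of the miRNA reads rises, and both scales are given. Of the markers of the labelled cells, 10 of 10 for mESCs were above 3 reads in the mESC library, beside 202 of all 1638 features. For male germ cells 9 of 9 were above 3 reads in the prospermatogonia library, beside 224 of 1638, and 2 of 9 in mESCs. These lists were chosen with earlier results of these data known, so the counts are no test of what the cells are. The male germ cell markers held 10.5% of the miRNA reads in prospermatogonia and 0.0118% in mESCs.

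Mir10a and Mir10b stood in opposite order in the libraries. Mir10a had 1270 reads in mESCs (2824 RPM, rank 16 of all features) and 304 reads in prospermatogonia (105.9 RPM, rank 47). Mir10b had 250 reads in mESCs (556 RPM, rank 45) and 1922 reads in prospermatogonia (669.8 RPM, rank 16). In each library one gene of the pair thus stood at rank 16 and the other at 45 or 47, and the gene at rank 16 was the one in the Hoxb cluster in mESCs and the one in the Hoxd cluster in prospermatogonia.

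**Figure D2:**
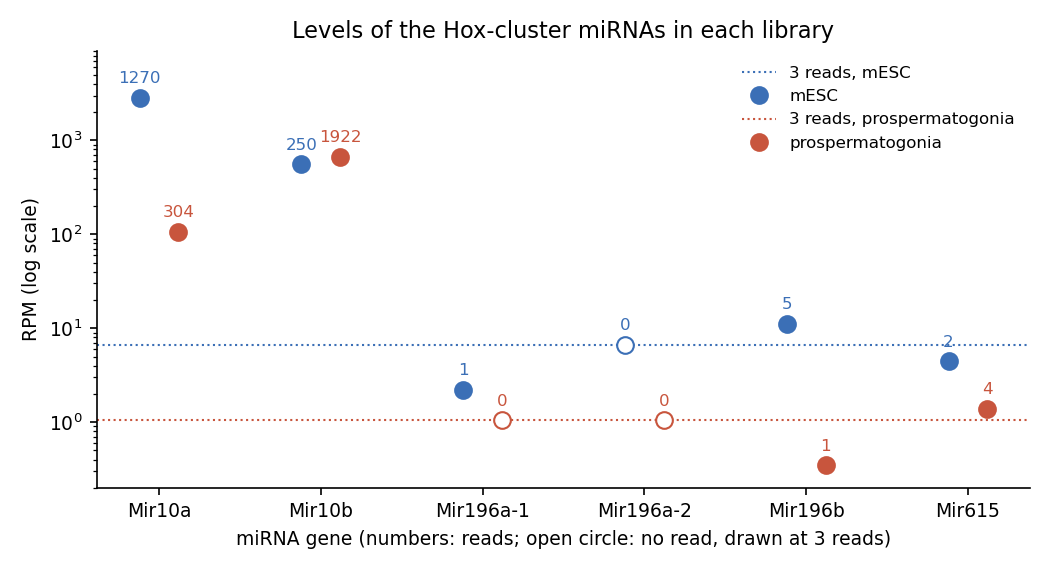
Level of each miRNA gene in RPM on a log axis, in mESCs (blue) and prospermatogonia (red), with the number of reads above each point. Dotted lines mark the level of 3 reads in each library and open circles mark genes without a read, drawn at that line, and only Mir10a and Mir10b lie far above the lines.

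Of the reads on the miR-10 genes, Mir10b held 16.4% (14.7% to 18.4%) in mESCs, 250 of 1520. In prospermatogonia it held 86.3% (84.9% to 87.7%), 1922 of 2226. Mir10a had 5.08 reads for each read of Mir10b in mESCs, and Mir10b had 6.32 reads for each read of Mir10a in prospermatogonia. The ratio of Mir10b to Mir10a was 32.1-fold higher in prospermatogonia (26.8 to 38.5, a 95% interval on the log scale for counting error only), or 5.01 on the log2 scale. Both terms of this ratio come from the same library and from mature strands of the same length, so that neither the library totals nor the share of miRNA reads enter it. The intervals of the libraries lay far apart, but 1 library per condition gives no spread between replicates. The mature sequences differ at 1 base, and how the mapping treated reads with a mismatch is not given in the sources used here.

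**Figure D3:**
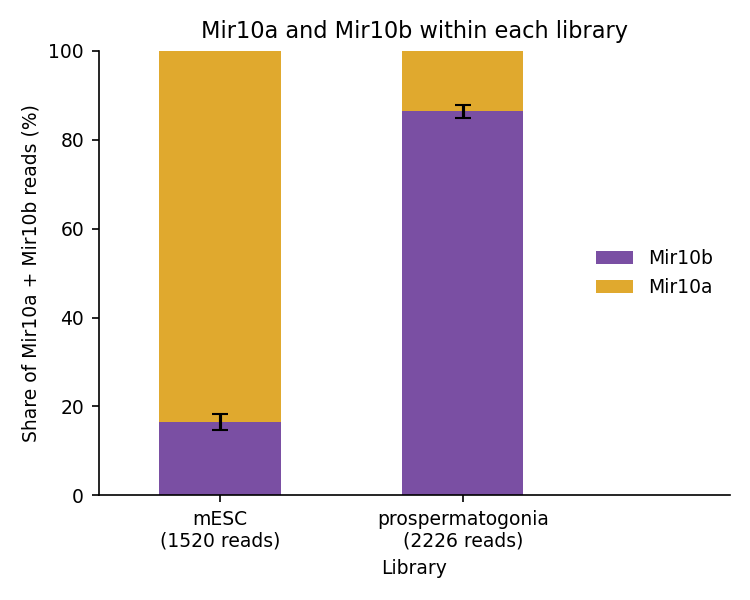
Share of Mir10b (purple) and Mir10a (yellow) among the reads of both genes in each library, in percent, with the 95% Wilson interval of the Mir10b share as error bars. Mir10b makes up 16.4% of 1520 reads in mESCs and 86.3% of 2226 reads in prospermatogonia.

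By share of the miRNA reads, the sum of the miR-10 genes differed far less than either gene, whereas by RPM the sum was 4.36-fold higher in mESCs (4.08 to 4.65). Their joint share of miRNA reads was 1.38% in mESCs (interval 1.31% to 1.45%) and 1.43% in prospermatogonia (interval 1.38% to 1.49%), a 1.04-fold difference whose interval, 0.976 to 1.11, includes equal shares. The 6 members together held 1528 reads in mESCs and 2231 in prospermatogonia, of which the miR-10 genes made up 99.5% and 99.8%. As levels the 6 members summed to 3398 RPM in mESCs and 777.5 RPM in prospermatogonia, 4.37-fold higher in mESCs (4.10 to 4.66). Their log2 ratio of prospermatogonia to mESCs was −2.13, beside −2.18 for the sum of all 1638 features.

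Ratios of single genes were taken as log2((RPM + 1) / (RPM + 1)), prospermatogonia over mESCs, and set beside the 203 features that reached 10 RPM in one library or both, whose median was −2.52. Mir10a had a log2 ratio of −4.72, the 27th from the lowest. It was 26.7-fold higher in mESCs by RPM (23.5 to 30.2) and 5.87-fold higher by its share of the miRNA reads (5.18 to 6.65), with 1.15% in mESCs and 0.196% in prospermatogonia. Mir10a was thus lower in prospermatogonia on both scales, and further down than the middle of the features. Of the 203 features 164 (80.8%) were at least 2-fold lower in prospermatogonia by RPM, so that a fall past this threshold was common. Features that passed the filter through the mESC library alone are lower in prospermatogonia by that rule. Passing took fewer reads in mESCs, where 1 read was worth 2.22 RPM, than in prospermatogonia, where it was worth 0.348 RPM. The median and the ranks rest on the same 203 features.

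Mir10b had a log2 ratio of 0.27, the 23rd from the highest. By RPM it was 1.20-fold higher in prospermatogonia (1.06 to 1.37) and not among the 20 features (9.85%) that were at least 2-fold higher. By its share of the miRNA reads it was 5.47-fold higher in prospermatogonia (4.80 to 6.24), with 0.226% in mESCs and 1.24% in prospermatogonia. With the libraries scaled to their miRNA reads, 41 of the 203 features (20.2%) were at least 2-fold higher in prospermatogonia and 81 (39.9%) at least 2-fold lower, and the median was −0.46. Mir10b was then at 2.45 and Mir10a at −2.55, so that both genes had the same direction on either scale while the size of each difference rested on the scale.

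**Figure D4:**
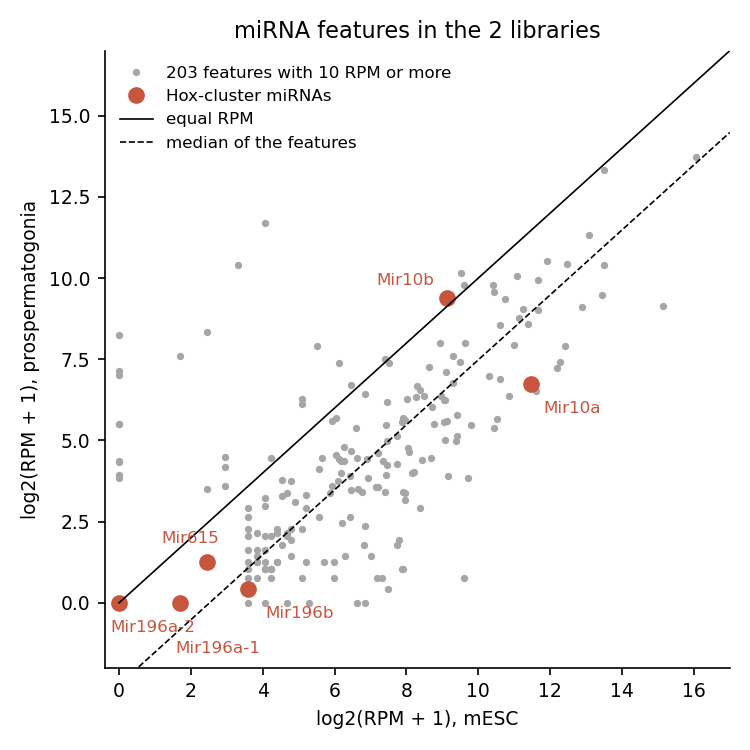
Level of each miRNA feature in mESCs (x axis) and prospermatogonia (y axis), both as log2(RPM + 1), for the 203 features that reached 10 RPM in one library or both (grey) and the 6 Hox-cluster miRNAs (red). The solid line marks equal RPM and the dashed line the median log2 ratio of −2.52, and Mir10b lies just above the solid line and Mir10a below the dashed one.

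**Figure D5:**
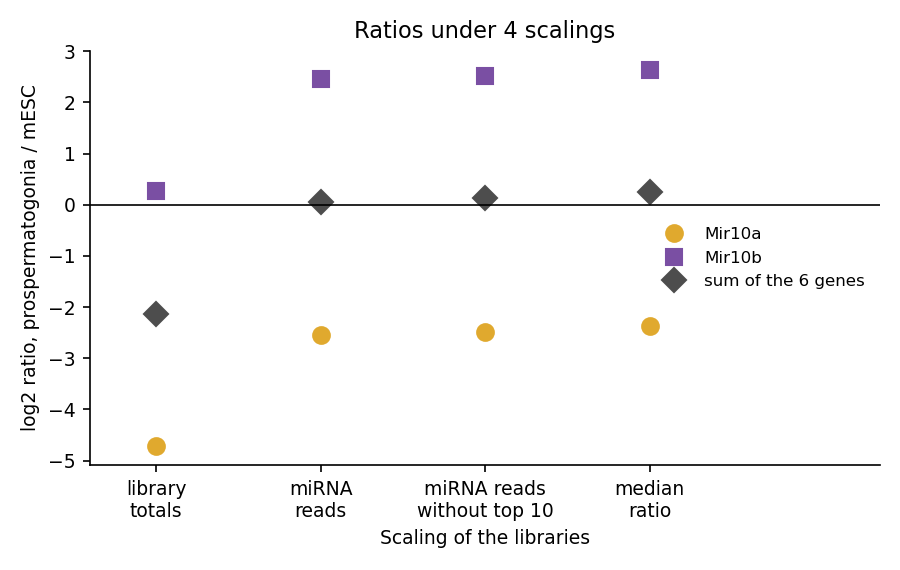
Log2 ratio of prospermatogonia to mESCs for Mir10a (yellow circles), Mir10b (purple squares) and the sum of the 6 genes (grey diamonds) under 4 ways of scaling the libraries. Mir10a stays below 0 and Mir10b above 0 under each, whereas the sum moves from −2.13 to between 0.055 and 0.24.

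The miR-196 genes were at or near the limit of detection. Mir196b, the member in the Hoxa cluster, had 5 reads in mESCs (11.1 RPM) and 1 read in prospermatogonia (0.348 RPM). It passed the filter of 10 RPM through the mESC library alone, with a log2 ratio of −3.17. The read ratio was 31.9-fold higher in mESCs by RPM (4.94 to 206) and 7.03-fold by share (1.09 to 45.4), intervals so wide that the size is hardly fixed by these reads. Mir196a-1, in the Hoxb cluster, had 1 read in mESCs and none in prospermatogonia. Mir196a-2, in the Hoxc cluster, had no read in either library. No fold is given for these copies, since both libraries were at or under 3 reads. Their hairpins share a stretch of 22 bases that holds the whole of miR-196a-5p, and how reads that match both copies were counted is not given in the sources used here. A level of miR-196a can therefore not be read from these counts with certainty. Among features of the table with a RefSeq mature sequence, 21 of 62 whose mature sequence also occurs in another gene were above 3 reads in at least 1 library (33.9%), beside 197 of 437 without such a copy (45.1%), and the part of this in the low miR-196a counts was not tested.

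Mir615, in the intron of Hoxc5, had 2 reads in mESCs (4.45 RPM) and 4 in prospermatogonia (1.39 RPM). By RPM it was 3.19-fold higher in mESCs (0.684 to 14.9), and by share of the miRNA reads 1.42-fold higher in prospermatogonia (0.305 to 6.64). Both intervals include equal levels and the direction turned with the scale, so that no difference was detectable at this depth. It stayed below the filter of 10 RPM. Both members of the Hoxc cluster together held 2 reads in mESCs and 4 in prospermatogonia, whereas the Hoxb cluster held 1271 and 304 and the Hoxd cluster 250 and 1922.
By these counts the order of levels was Mir10a above Mir10b in mESCs and Mir10b above Mir10a in prospermatogonia, with the other 4 genes far below. Their counts of 0 to 5 reads are too low to rank them among each other.

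The closest relatives of miR-10 outside the Hox clusters are miR-99a, miR-99b and miR-100, which share stretches of their mature strands with miR-10 but not its seed. They are shown for comparison with miR-10a-5p and miR-10b-5p, with bases 2 to 8 in capitals.
miR-99a-5p: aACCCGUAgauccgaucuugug
miR-99b-5p: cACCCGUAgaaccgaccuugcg
miR-100-5p: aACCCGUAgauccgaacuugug
The longest stretch shared with miR-10a-5p is 11 bases for miR-100-5p and 10 for miR-99a-5p, and miR-99b-5p shares 10 with miR-10b-5p. Mir99b, on chromosome 17, had 607 reads in mESCs (1350 RPM) and 2508 in prospermatogonia (874 RPM), and its share of the miRNA reads was 2.94-fold higher in prospermatogonia (2.69 to 3.21). Mir100, on chromosome 9, had 28 reads in mESCs (62.3 RPM) and 4 in prospermatogonia (1.39 RPM), 9.84-fold lower in prospermatogonia by share (3.60 to 26.9). Mir99a, on chromosome 16, had 1 read in mESCs and 8 in prospermatogonia, too few to fix a size (5.69-fold by share, 0.924 to 35.1). The sum of these relatives was 0.576% of the miRNA reads in mESCs and 1.62% in prospermatogonia, 2.82-fold higher in the latter (2.58 to 3.08), beside the 1.04-fold difference of the summed miR-10 genes.

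The features whose levels in both libraries were nearest to each member were found by the distance over log2(RPM + 1), which with 2 libraries is a description only. The search covered features outside the members that reached 10 RPM in one library or both. Nearest to Mir10a were Mir143 with 1393 reads in mESCs and 260 in prospermatogonia, at a distance of 0.26, Mir294 with 837 and 235 reads, at 0.70, and Mir186 with 700 and 338 reads, at 0.87. Nearest to Mir10b were Mir125a with 346 and 2527 reads, at 0.61, Mir423 with 330 and 3242 reads, at 0.85, and Mir30d with 619 and 2179 reads, at 1.32. Mir294 is one of the mESC markers, and Mir143 is known as a miRNA of smooth muscle and other mesenchymal cells. Of the features searched, the nearest to Mir196b were Mir488, Mir666 and Mir574, and the nearest to Mir615 were Mir670, Mir382 and Mir337. All had 6 reads or fewer in each library, where such nearness says little. Mir615 was itself below 10 RPM, and features below that level, which can lie nearer, were left out. Among these, Mir667 had the same 2 and 4 reads as Mir615, and Mir16-1 had 4 and 1 reads beside 5 and 1 for Mir196b.

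Markers of other cells moved in the same direction as Mir10a in part. That direction was common, since 164 of the 203 features (80.8%) were at least 2-fold lower in prospermatogonia by RPM. With the libraries scaled to their miRNA reads it was 81 of 203 (39.9%). Of 7 mesenchymal markers, 4 were above 3 reads in mESCs and 2 in prospermatogonia, and the list summed to 8131 RPM (3.31% of the miRNA reads) in mESCs and 261 RPM (0.482%) in prospermatogonia. Mir21 with 2215 and 486 reads and Mir143 made up nearly all of it, whereas Mir199a-1 and Mir199a-2 had no read in either library and Mir145 had 17 reads in mESCs and none in prospermatogonia. Mir126, a marker of endothelium, had 255 and 40 reads. Of 6 blood markers 2 were above 3 reads in each library, and the list held 0.394% of the miRNA reads in mESCs and 0.0844% in prospermatogonia. Mir142 with 400 and 124 reads made up most of it, followed by Mir150 with 35 and 5. The red cell marker Mir451 had 0 reads and 1 read, as did Mir486, and Mir144 and Mir223 had no read in either library.
Of 3 markers of the gonad soma, 2 were above 3 reads in mESCs and 3 in prospermatogonia, and the list summed to 643 RPM (0.262% of the miRNA reads) in mESCs and 216 RPM (0.399%) in prospermatogonia, so that its direction turned with the scale. Mir140 made up most of it with 280 reads in mESCs and 558 in prospermatogonia. Mir202, which is largely confined to the gonad, had no read in mESCs and 57 in prospermatogonia, and Mir455 had 9 and 4 reads. The mESC markers held 24.4% of the miRNA reads in mESCs and still 3.25% in prospermatogonia, where 6 of 10 were above 3 reads. The part of other cells in the levels of Mir10a and Mir10b was not tested, and with bulk libraries fewer cells of a type and less RNA per cell cannot be told apart. The list names give the cells a gene is known from. E14 is a cultured line, and reads of these genes there were not taken as a count of blood or endothelial cells.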

How the data were processed

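The authors trimmed the smRNA-seq reads (Trim Galore 0.4.1, per the submitters' processing notes) and mapped them with Bowtie through piPipes. They deposited log2 values of 1638 miRNA features for 2 libraries, read here as log2 RPM. The unit of the smRNA values, the counter, the use of strand and the treatment of reads with several matches are not given in the sources used here. The methods name mm9 (GRCm37) and the processing notes GRCm38. Listed positions equalled those of GENCODE vM21 on GRCm38 for 5 of 6 members.

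In linear form the values above the lowest one were whole multiples of a constant, taken as 1 read. None of these values deviated by more than 0.00517 reads (mESCs) or 0.0140 reads (prospermatogonia). Features at the lowest value, 0.9 reads, were set to 0 reads (1353 in mESCs, 1321 in prospermatogonia). Log2 ratios used a pseudocount of 1 RPM, which understates changes of low features, and counts of features used a filter of 10 RPM in at least 1 library and a 2-fold threshold. The computation was tested on simulated data.

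The members and lists were chosen with earlier results of these data known. Named besides the members were Mir99a, Mir99b, Mir100 and marker lists. For each member above 3 reads in a library, the 3 nearest features that reached 10 RPM in at least 1 library were also named. Alternatives covered pseudocounts, scalings, filters, thresholds, denominators and the summed set. The mPGCLC smRNA-seq library was not analysed here. Computations ran in Python 3.11.15 with pandas 2.3.3 and numpy 2.4.6, intervals came from scipy 1.17.1, and plots from matplotlib 3.10.9.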

Additional observations from a re-analysis of the deposited data

How the results depend on the processing

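No replicate was left out, as there was 1 library per condition. No paired analysis was possible with 1 library per condition, and no result comes from a test. Depth limits Mir196a-1, Mir196a-2, Mir196b and Mir615, which had 5 reads or fewer in each library. The ratio of Mir10b to Mir10a is the same under any scaling by construction.

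Scaling to the median ratio, to the miRNA reads and to the miRNA reads without the 10 highest features of each library moved the log2 ratio of the 6 summed members from −2.13 to 0.24, 0.055 and 0.13, that of Mir10a from −4.72 to −2.36, −2.55 and −2.48, that of Mir10b from 0.27 to 2.64, 2.45 and 2.52, that of Mir196b from −3.17 to −2.11, −2.23 and −2.19, and that of Mir615 from −1.19 to 0.59, 0.43 and 0.49. The scaling itself sets these shifts. In the same order 45, 41 and 44 features were at least 2-fold higher in prospermatogonia in place of 20, and 74, 81 and 78 lower in place of 164. Counting every feature with a read in either library gave 40 higher and 230 lower, and counting those with 10 RPM in both gave 5 higher and 91 lower, because the filter sets the number of features that enter. As these sets differ in size, the counts are not shares and cannot be set directly beside 20 and 164.

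Without Mir10a and Mir10b the log2 ratio of the sum was −2.78, and its share of the miRNA reads was 0.00724% in place of 1.38% in mESCs and 0.00322% in place of 1.44% in prospermatogonia. Without the 10 highest features in the denominator the shares were 4.98% and 5.44%, and of the library totals they were 0.340% and 0.0777%. Pseudocounts of 0.1 and 5, empty features as deposited, a 4-fold threshold, named features only and other features at the same positions changed no direction and moved no count by over 1.5-fold. The same pseudocounts put the log2 ratio of Mir196b at −4.64 and −1.59 and that of Mir615 at −1.61 and −0.56, as both genes have few reads.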
